A study of Rattus norvegicus with 30 samples.

Results

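The 8 genes described here act in the synthesis of cholesterol and in its feedback control, and were chosen by name from the 13124 genes of the count table. They are 7 enzymes of the pathway (Hmgcs1, Idi1, Fdps, Fdft1, Sqle, Lss and Dhcr7) and Insig1, a sensor of sterols. None of the 8 is a receptor that takes up cholesterol, so genes of uptake are given from a list of their own. All 8 passed the filter on low counts, which asked for a mean of 3 CPM (counts scaled to the total of the library) or more in any group and which 12558 genes passed.

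RNA was sequenced from the plantaris tendons of 30 male Sprague Dawley rats, 3 months old. Control tendons (n = 3) came from rats that had neither an operation nor the compound. The other tendons had been cut and sutured 7 days (7D) or 21 days (21D) before harvest, with the Achilles tendon left intact. Operated rats were given GSK2894631A, an inhibitor of hematopoietic prostaglandin D synthase, by oral gavage at 0, 2 or 6 mg/kg 2 times a day, where 0 mg/kg was the vehicle. The groups held 5 (7D 0 mg/kg), 4 (7D 2 mg/kg) and 3 tendons (7D 6 mg/kg), and 5 tendons at each dose at 21D. Counts on the listed genes came to 12405741 to 49909374 per tendon. The injury, the suture, and the anesthesia and pain relief of the operation were absent from control rats. They cannot be told apart in comparisons with control. Gavage of vehicle is not described for control rats, so its part cannot be told apart either. In bulk tissue, fewer cells of a type and less RNA per cell cannot be told apart either.

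Markers of tendon were present, with a median of 1.59% of counts on 9 tendon genes in control tendons and 2.998% to 4.86% in the repaired groups. Control tendons also held 19.3%, 19.5% and 28.0% of their counts on 25 genes of skeletal muscle, against 0.0154% to 9.80% in repaired tendons, so the control libraries stand apart from the rest.

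Cells build cholesterol from acetyl-CoA by way of mevalonate and isoprenoid units, which are joined to squalene, closed to a ring and trimmed to the final sterol. When sterols run low in the endoplasmic reticulum, SREBP transcription factors and their escort are released from INSIG proteins, and the factors are cut in the Golgi, and switch on most genes of the pathway. Dividing cells and cells that secrete matrix need membrane lipid, and macrophages that clear debris take up and export cholesterol.

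The stretch before the start of these genes is where SREBP and its partners NF-Y, which binds CCAAT, and Sp1, which binds GGGCGG, are known to act, so it is shown for the 6 of the 8 genes whose promoters were matched in RefSeq (GRCr8). Sqle and Fdft1 were not matched. The 200 bases before each start, in the direction of the gene, lie at Hmgcs1 chr2:53382104-53382303 (plus strand), Idi1 chr17:66547525-66547724 (minus strand), Fdps chr2:176804817-176805016 (minus strand), Lss chr20:12118231-12118430 (minus strand), Dhcr7 chr1:208444234-208444433 (plus strand) and Insig1 chr4:8057770-8057969 (minus strand). Capitals mark the motif of NF-Y, which reads CCAAT on the shown strand and ATTGG when it lies on the opposite strand. Capitals also mark the motif of Sp1, which reads GGGCGG on the shown strand and CCGCCC when it lies on the opposite strand.
Hmgcs1: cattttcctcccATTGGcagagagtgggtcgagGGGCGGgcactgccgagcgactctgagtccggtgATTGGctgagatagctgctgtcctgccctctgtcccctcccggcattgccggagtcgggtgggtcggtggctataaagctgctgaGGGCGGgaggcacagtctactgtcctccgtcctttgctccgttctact
Idi1: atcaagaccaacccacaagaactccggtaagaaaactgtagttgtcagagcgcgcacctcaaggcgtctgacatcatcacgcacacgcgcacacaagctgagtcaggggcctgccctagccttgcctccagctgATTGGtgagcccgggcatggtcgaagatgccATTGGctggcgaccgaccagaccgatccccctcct
Fdps: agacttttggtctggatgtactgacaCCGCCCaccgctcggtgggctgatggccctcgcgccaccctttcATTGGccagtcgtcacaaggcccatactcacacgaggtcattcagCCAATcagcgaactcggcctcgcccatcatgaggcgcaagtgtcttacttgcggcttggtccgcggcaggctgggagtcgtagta
Lss: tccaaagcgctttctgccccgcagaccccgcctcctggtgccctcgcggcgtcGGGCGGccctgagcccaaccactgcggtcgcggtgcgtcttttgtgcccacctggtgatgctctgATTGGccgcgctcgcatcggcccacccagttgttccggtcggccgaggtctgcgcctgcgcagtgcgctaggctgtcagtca
Dhcr7: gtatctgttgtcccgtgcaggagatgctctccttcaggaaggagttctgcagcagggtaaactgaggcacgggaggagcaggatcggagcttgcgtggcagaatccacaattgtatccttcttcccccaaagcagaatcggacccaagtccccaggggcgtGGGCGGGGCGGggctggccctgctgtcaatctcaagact
Insig1: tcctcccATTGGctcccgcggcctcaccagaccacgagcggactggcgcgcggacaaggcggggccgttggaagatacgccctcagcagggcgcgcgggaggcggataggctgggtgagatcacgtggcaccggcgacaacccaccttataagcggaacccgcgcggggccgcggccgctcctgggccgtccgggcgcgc

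In the window from 250 bases before to 50 bases after the start, searched on both strands, CCAAT was found in 5 of the 6 promoters, in all but that of Dhcr7, against 37.5% of all 33469 promoters. GGGCGG was found in 5 of the 6, in all but that of Idi1, against 33.1% of all promoters and 60.8% of the 10485 promoters of tested genes. The 2 GGGCGG matches of Dhcr7 overlap. TCACNCCAC, a core of the sterol regulatory element, was found in 0 of the 6 and in 1.12% of all promoters, which says only that these letters are not in this window. Of 10 other enzymes of the pathway with a matched promoter, 8 held CCAAT, 9 held GGGCGG and 0 held TCACNCCAC.

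The first question was how repaired tendons differed from control tendons. The 8 genes did not move together. Sqle, Lss, Dhcr7 and Insig1 were higher than control in all 6 repaired groups and Idi1 in 5, Fdft1 and Fdps were lower in all 6, and Hmgcs1 passed the test in none (edgeR quasi-likelihood test, Benjamini-Hochberg adjusted p under 0.05). All 6 comparisons share the same 3 control tendons. Where groups are said here not to overlap, the share of all tested genes without overlap was not computed. Nothing particular to the 8 genes is read from such a separation. At 7D 0 mg/kg 5 were higher and 2 lower, where 35.8% of all tested genes were higher and 35.6% lower. Of the 8, 5 were higher and 2 lower at 7D 2 mg/kg (all genes 35.8% and 34%), 5 and 2 at 7D 6 mg/kg (34.1% and 33.8%) and 4 and 2 at 21D 0 mg/kg (32.2% and 33.7%). The same counts were 5 and 2 at 21D 2 mg/kg (33.8% and 35.3%) and 5 and 2 at 21D 6 mg/kg (30.8% and 33.3%).

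The median log2 fold change of the 8 genes was 0.93 at 7D 0 mg/kg and 0.59 at 21D 0 mg/kg, beside 0.05 and 0.03 over all tested genes. Such values are relative to the scaling of the libraries. With library size alone in place of TMM, the median of all genes moved to 0.64 at 7D 0 mg/kg and 0.59 at 21D 0 mg/kg, and 75.6% in place of 50.1% of the calls at 7D 0 mg/kg were higher. Fdps was then lower in no group, while the directions of Sqle, Lss, Dhcr7, Idi1, Insig1 and Fdft1 did not change.

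**Figure D1:**
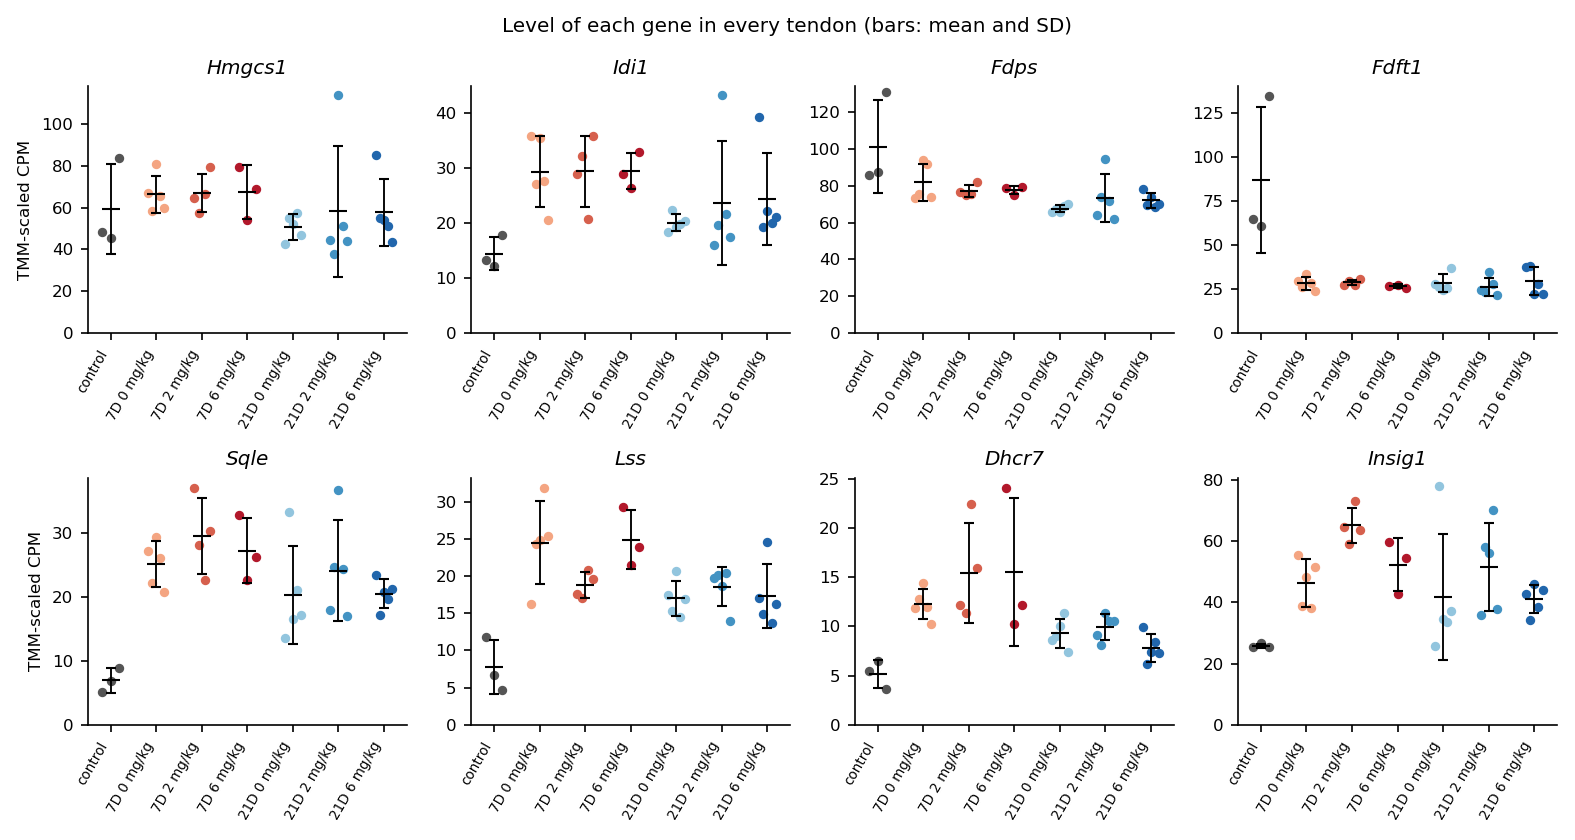
TMM-scaled CPM of the 8 genes (vertical axes, from 0) in the 7 groups, with a point for each tendon and bars for the mean and SD. All repaired tendons lie below all control tendons for Fdft1 and above them for Sqle and Lss. How many of all tested genes separate in this way was not computed.

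Sqle makes squalene epoxidase, which oxidizes squalene and is a point of control in the later part of the pathway. The control tendons had 5.04, 6.81 and 8.90 CPM. The 7D 0 mg/kg tendons had 27.2, 22.2, 29.4, 26.1 and 20.8 CPM and the 21D 0 mg/kg tendons 13.6, 33.2, 16.5, 21.1 and 17.1 CPM. All repaired tendons lay above all controls, and replicate 2 was the highest at 21D 0 mg/kg. Sqle was 3.65-fold higher at 7D 0 mg/kg (log2 fold change 1.87, SE 0.27, adjusted p = 1.56e-06) and 2.95-fold higher at 21D 0 mg/kg (log2 fold change 1.56, SE 0.27, adjusted p = 2.19e-05). With the compound its level was 22.7 to 37.1 CPM at 7D and 16.9 to 36.8 CPM at 21D.

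Lss makes lanosterol synthase, which closes the ring. Its level was 11.9, 6.73 and 4.73 CPM in control tendons. At 7D 0 mg/kg it was 16.2, 24.3, 24.9, 31.9 and 25.4 CPM, and at 21D 0 mg/kg it was 17.5, 15.3, 20.7, 14.6 and 17.0 CPM. No repaired tendon overlapped the controls, of which replicate 2 was the highest. Its log2 fold change reached 1.65 (SE 0.24, adjusted p = 1.57e-06) at 7D and 1.12 (SE 0.24, adjusted p = 0.000219) at 21D.

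Dhcr7 makes 7-dehydrocholesterol reductase, which acts in the last step to cholesterol. Control tendons had 5.42, 6.45 and 3.59 CPM. The 7D 0 mg/kg tendons had 11.8, 12.8, 14.5, 12.0 and 10.2 CPM and the 21D 0 mg/kg tendons 8.59, 9.06, 10.1, 11.4 and 7.45 CPM, and both groups lay above control. The log2 fold change was 1.24 (SE 0.26, adjusted p = 0.000137) at 7D and 0.84 (SE 0.25, adjusted p = 0.00526) at 21D, where it was 0.60 and not past the test without control replicate 4. The 21D 6 mg/kg tendons (6.14 to 9.98 CPM) overlapped the controls, with a log2 fold change of 0.59 (SE 0.25, adjusted p = 0.0418). That call was lost without control replicate 2 or 4 or without 21D 6 mg/kg replicate 1 or 4 (log2 fold changes 0.57, 0.36, 0.49 and 0.57). It was also lost with RLE scaling (0.56) and in a fit of only the groups compared (0.58).

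Idi1 makes isopentenyl-diphosphate isomerase, which readies the isoprenoid unit for joining. The control tendons had 13.2, 12.2 and 17.9 CPM. The 7D 0 mg/kg tendons had 35.7, 27.0, 35.5, 27.7 and 20.5 CPM and the 21D 0 mg/kg tendons 18.3, 22.4, 19.3, 19.7 and 20.3 CPM. Neither group overlapped the controls, although the lowest 21D tendon was close to the highest control. Idi1 was higher at 7D (log2 fold change 1.02, SE 0.28, adjusted p = 0.00206), and at 21D its log2 fold change of 0.48 did not pass the test (SE 0.27, adjusted p = 0.126), though it did with library size alone (1.06) and in a fit of only the groups compared (0.47). It was 0.72 (SE 0.28, adjusted p = 0.0239) at 21D 2 mg/kg and 0.76 (SE 0.28, adjusted p = 0.0191) at 21D 6 mg/kg. Those calls were lost without the high tendon of each group, replicate 3 at 2 mg/kg (0.38) and replicate 1 at 6 mg/kg (0.52). They were also lost without control replicate 2 (0.58 and 0.64) or 3 (0.64 and 0.67), and in a fit of only the groups compared (0.72 and 0.74).

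Insig1 holds the escort protein of SREBP in the endoplasmic reticulum when sterols are plentiful, and is itself a target of SREBP. The controls were close together, with 25.5, 26.6 and 25.5 CPM. The 7D 0 mg/kg tendons had 55.5, 38.7, 48.2, 38.1 and 51.6 CPM and the 21D 0 mg/kg tendons 25.8, 78.1, 34.7, 33.6 and 37.3 CPM. The 7D tendons all lay above control, while at 21D replicate 1 lay among the controls and replicate 2 far above the rest. In log2 fold change Insig1 was at 0.84 (SE 0.26, adjusted p = 0.00491) at 7D and at 0.70 (SE 0.25, adjusted p = 0.0188) at 21D. The call at 21D was lost without control replicate 2, control replicate 4 or 21D 0 mg/kg replicate 2 (0.62, 0.63 and 0.34), and that at 21D 6 mg/kg (0.67) without control replicate 2 or 4 (0.59 and 0.61). The call at 21D 0 mg/kg was also lost in a fit of only the groups compared (0.70).

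Fdft1 makes squalene synthase, the first enzyme committed to sterols, which supplies the substrate of Sqle. Control tendons had 64.8, 60.8 and 135 CPM. The 7D 0 mg/kg tendons had 29.8, 26.1, 33.7, 28.6 and 23.8 CPM and the 21D 0 mg/kg tendons 27.7, 26.4, 24.6, 25.4 and 37.2 CPM. All repaired tendons were below all controls, of which replicate 4 was the highest by far. Fdft1 was 3.05-fold lower at 7D (log2 fold change -1.61, SE 0.21, adjusted p = 2.99e-07) and 3.06-fold lower at 21D (log2 fold change -1.62, SE 0.21, adjusted p = 5.32e-07). Over the 6 groups its log2 fold change lay between -1.72 and -1.54. With library size alone it was -0.95 at 7D 0 mg/kg and passed the test in all 6 groups.

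The ratio of Sqle to Fdft1 counts within a tendon does not depend on the scaling of libraries. It was 0.0661 to 0.112 in the control tendons, with a median of 0.0779. It was 0.449 to 1.35 in the 27 repaired tendons, with a median of 0.874, and the groups did not overlap. The ratio was chosen after the values were seen and is given without a test.

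Fdps makes farnesyl diphosphate synthase, whose product feeds sterols and also protein prenylation, ubiquinone and dolichol. The controls had 85.6, 87.4 and 130.5 CPM. The 7D 0 mg/kg tendons had 73.5, 75.3, 93.9, 91.9 and 74.0 CPM and overlapped the controls, and the 21D 0 mg/kg tendons had 65.5, 67.3, 65.8, 68.9 and 70.1 CPM and did not. Fdps was lower by a small amount, with log2 fold changes of -0.31 (SE 0.12, adjusted p = 0.0288) at 7D and -0.58 (SE 0.12, adjusted p = 0.000217) at 21D, but with library size alone it was at 0.32 and 0.01. Without control replicate 4 it was -0.14, -0.21 and -0.19 at 7D 0, 2 and 6 mg/kg and did not pass the test. The call at 7D 0 mg/kg was also lost without replicate 1, 2 or 5 of that group (-0.27, -0.28 and -0.27), and that at 7D 6 mg/kg without its replicate 4 (-0.36). In a fit of only the groups compared Fdps passed in none of the 7D groups nor at 21D 2 mg/kg (-0.34, -0.43, -0.42 and -0.46). Fdps is known for processed pseudogenes, and reads shared with such copies cannot be traced in a table of counts.

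Hmgcs1 makes the HMG-CoA synthase of the cytosol, which acts early in the pathway. It had 48.3, 45.4 and 83.9 CPM in control tendons. At 7D 0 mg/kg it had 67.0, 58.6, 80.6, 65.7 and 59.9 CPM, and at 21D 0 mg/kg 42.4, 55.2, 52.1, 57.4 and 46.7 CPM. All groups overlapped the controls, of which replicate 4 was above every 0 mg/kg tendon. The log2 fold change was 0.17 at 7D (95% interval -0.39 to 0.73, adjusted p = 0.592) and -0.22 at 21D (95% interval -0.77 to 0.34, adjusted p = 0.483), and with library size alone it was 0.81, past the test as in the other 7D groups, and 0.39.

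**Figure D2:**
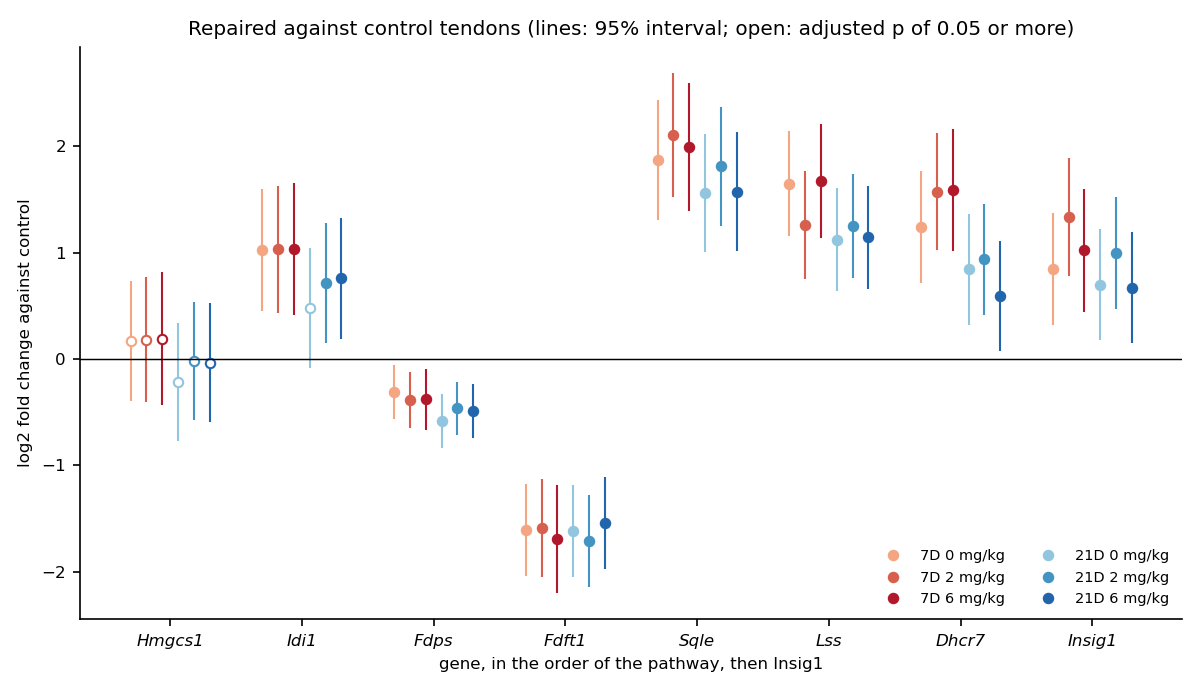
Log2 fold change (vertical axis) of each gene in each repaired group against the 3 shared control tendons, with 95% intervals as lines and open points where the adjusted p was 0.05 or more. Sqle lies highest (1.56 to 2.11) and Fdft1 lowest (-1.72 to -1.54), while Fdps lies at -0.58 to -0.31 under TMM scaling and above 0 with library size alone.

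Of 11 other enzymes of the pathway, 5 were higher and 1 lower at 7D 0 mg/kg (median log2 fold change 0.35) and 4 were higher and 2 lower at 21D 0 mg/kg (0.24). At 7D, Acat2, which makes acetoacetyl-CoA, was higher by 1.44 on the log2 scale (SE 0.27, adjusted p = 3.77e-05). Mvk (mevalonate kinase) was higher by 0.51 (SE 0.12, adjusted p = 0.000725). After the ring is closed, Cyp51 and Msmo1, which remove methyl groups, were higher by 0.87 (SE 0.19, adjusted p = 0.000203) and 0.98 (SE 0.22, adjusted p = 0.000327). The sterol isomerase Ebp was higher by 0.92 (SE 0.13, adjusted p = 1.51e-06). The sterol desaturase Sc5d was lower (log2 fold change -0.38, SE 0.14, adjusted p = 0.0148), but at 0.23 with library size alone. Pmvk (-0.12), Mvd (0.14), Tm7sf2 (0.35), Nsdhl (-0.08) and Hsd17b7 (0.18) did not pass the test, except Tm7sf2 without control replicate 4 (0.61). With library size alone, 10 of the 11 were higher at 7D 0 mg/kg and 0 lower. The share of all genes called higher under that scaling is not given here. Since that scaling also raised the median of all genes, nothing particular to these enzymes is read from that count.

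At 21D 0 mg/kg, Acat2 (0.86), Msmo1 (0.83), Ebp (0.76) and Mvk (0.30) were above control on the log2 scale, and Cyp51 was at 0.36 and did not pass the test (adjusted p = 0.0884), though it did without 21D 0 mg/kg replicate 1 (0.48) and with library size alone (0.94). Sc5d was lower (log2 fold change -0.60, SE 0.14, adjusted p = 0.000462), and with library size alone it was -0.03 and did not pass the test. Mvd, the decarboxylase of the mevalonate arm, was lower (log2 fold change -0.44, SE 0.18, adjusted p = 0.0346), and at 0.12 with library size alone. The calls on Mvk and Mvd were each lost without any of 4 tendons. For Mvk these were control replicates 2 and 4 and 21D 0 mg/kg replicates 2 and 4 (0.11, 0.28, 0.29 and 0.29), and for Mvd control replicates 3 and 4 and 21D 0 mg/kg replicates 1 and 5 (-0.44, -0.47, -0.36 and -0.41). In a fit of only the groups compared both calls were lost as well (Mvk 0.30, Mvd -0.44), and that on Mvk also with RLE scaling (0.26) and without muscle genes (0.28). Without control replicate 2, 4 of the 11 were lower at 21D 0 mg/kg in place of 2, with Pmvk (-0.37) and Nsdhl (-0.26) added.

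Of these 18 enzymes in all, 9 were higher and 3 lower at 7D 0 mg/kg, and 7 were higher and 4 lower at 21D 0 mg/kg. Of all tested genes, 35.8% were higher and 35.6% lower at 7D 0 mg/kg, and 32.2% and 33.7% at 21D 0 mg/kg. These shares of all genes also apply to the counts of the other enzymes above and of the lists below. The neighbours Fdps and Fdft1 were lower, Fdps not with library size alone, while Idi1 before them and Sqle after them had positive log2 fold changes in both groups.

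**Figure D3:**
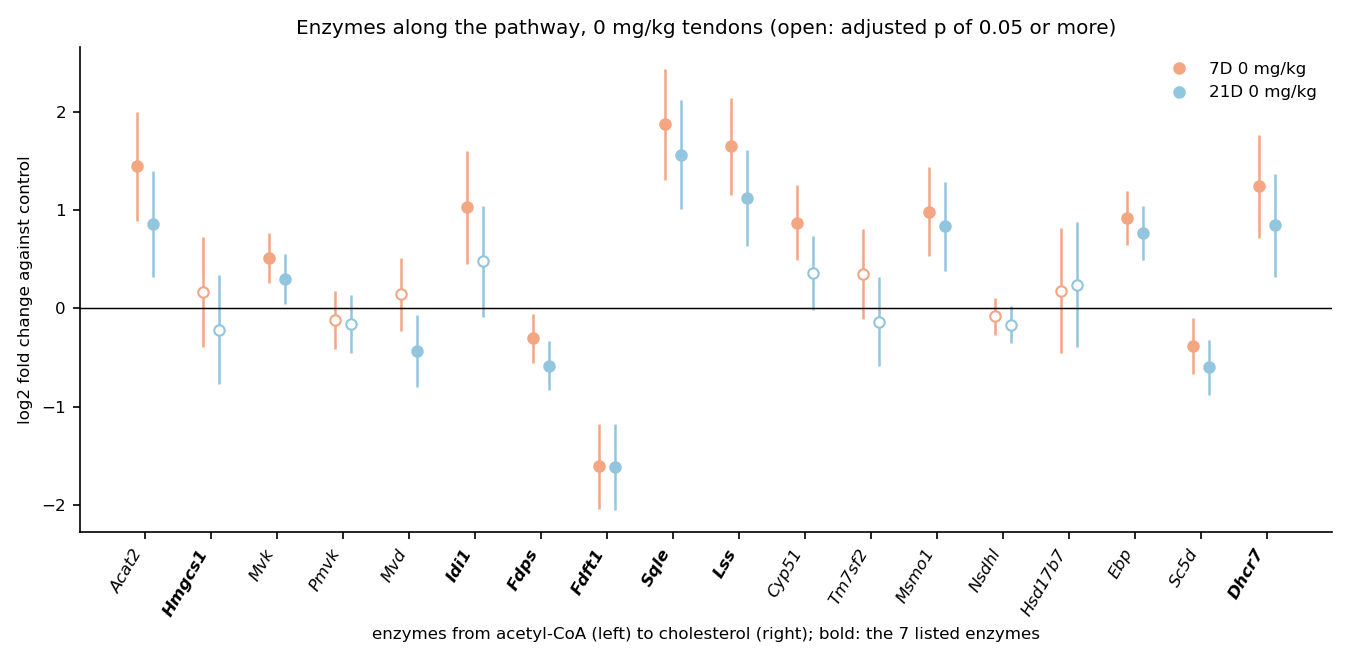
Log2 fold change (vertical axis) of 18 enzymes in the order of their reactions, at 7D and 21D with 0 mg/kg against control, with 95% intervals as lines and open points where the adjusted p was 0.05 or more. Sqle is highest and Fdft1 lowest in both groups, and with library size alone Fdps, Pmvk and Nsdhl in both groups, Sc5d at 7D, and Hmgcs1, Mvd and Tm7sf2 at 21D turn from below to above 0.

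Of the 6 other genes of SREBP control, 2 were higher and 1 lower at 7D 0 mg/kg (median 0.17) and 1 was higher and 1 lower at 21D 0 mg/kg (0.06). Insig2, a paralogue of Insig1, was lower at 7D (log2 fold change -1.22, SE 0.14, adjusted p = 3.27e-08) and at 21D (log2 fold change -0.81, SE 0.14, adjusted p = 1.78e-05), in the direction opposite to Insig1, though with library size alone it was -0.23 and not past the test at 21D. Mbtps2, the protease that makes the second cut of SREBP, was higher by 0.48 (SE 0.13, adjusted p = 0.00188) at 7D. Mbtps1 (-0.07), which makes the first cut, and Scap (0.11), the escort protein, did not pass the test at 7D, and with library size alone they were at 0.51 and 0.71 and did. Mbtps1 was at -0.27 and lower without control replicate 4. Srebf1 and Srebf2, which encode SREBP1 and SREBP2, were named after their values were seen, and each passed the test in 1 of the 6 comparisons with control. Srebf1 was at 0.24, 0.72 and 0.58 at 7D 0, 2 and 6 mg/kg (adjusted p = 0.483, 0.0462 and 0.131 by edgeR), and its values with other settings were not tabulated. Srebf2 was at 0.24 and 0.12 at 7D 2 and 6 mg/kg (adjusted p = 0.218 and 0.58). It was higher by 0.38 (SE 0.17, adjusted p = 0.0447) at 7D 0 mg/kg and at -0.05 (adjusted p = 0.813) at 21D 0 mg/kg, where library size alone gave 0.52. The call at 7D was lost without any of control replicates 2, 3 and 4 and 7D 0 mg/kg replicates 3 and 4 (0.39, 0.32, 0.33, 0.29 and 0.37). It was also lost with RLE scaling (0.34), without muscle genes (0.35), in a fit of only the groups compared (0.34) and by DESeq2 (0.34).

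Of 8 genes of cholesterol uptake, 6 were higher and 1 lower at 7D 0 mg/kg (median 1.26) and 6 were higher and 1 lower at 21D 0 mg/kg (0.93). Lrp1, an endocytic receptor, was higher by 1.46 (SE 0.28, adjusted p = 5.11e-05) at 7D, and Npc2, which carries cholesterol in lysosomes, by 1.49 (SE 0.20, adjusted p = 3.93e-07). Vldlr, a receptor of lipoproteins, was lower (log2 fold change -1.62, SE 0.14, adjusted p = 5.4e-10).

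Of 9 genes of cholesterol export, storage and oxidation, 5 were higher and 1 lower at 7D 0 mg/kg (median 2.18) and 6 were higher and 1 lower at 21D 0 mg/kg (1.72). Apoe, a carrier of exported cholesterol, was at 696 ± 387 CPM (SD, n = 3) in controls and at 8958 ± 3026 CPM (SD, n = 5) after 7D with 0 mg/kg (log2 fold change 3.69, SE 0.53, adjusted p = 1.15e-06). Abca1, a cholesterol exporter, was higher by 2.18 (SE 0.30, adjusted p = 6.56e-07) and the oxysterol hydroxylase Cyp7b1 by 3.15 (SE 0.37, adjusted p = 5.52e-08). Cyp27a1, a sterol hydroxylase of mitochondria, was lower (log2 fold change -1.68, SE 0.19, adjusted p = 2.38e-08).

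Of 8 genes of the branches that leave the pathway at isoprenoids, 1 was higher and 5 lower at 7D 0 mg/kg (median -0.45) and 1 was higher and 3 lower at 21D 0 mg/kg (-0.31). Coq2 and Pdss2, both of ubiquinone synthesis, were at -1.99 (SE 0.23, adjusted p = 4.14e-08) and -2.18 (SE 0.24, adjusted p = 2.44e-08) at 7D, both lower. Dhdds, of dolichol synthesis, was higher by 0.35 (SE 0.07, adjusted p = 0.000101), and Fnta, a subunit of protein prenyltransferases, was at -0.18 (adjusted p = 0.102), and at 0.44 with library size alone. At 21D 0 mg/kg Dhdds was at 0.28, a call lost in a fit of only the groups compared. At 7D 0 mg/kg, Fnta was lower at -0.37 without control replicate 2, and DESeq2 called it lower with all tendons (-0.22). Of 9 genes of fatty acid synthesis, which SREBP1 is known to drive, 5 were higher and 2 lower at 7D 0 mg/kg (median 0.97) and 5 were higher and 2 lower at 21D 0 mg/kg (0.80). The desaturases Scd2 and Fads1 were higher by 1.43 (SE 0.28, adjusted p = 7.76e-05) and 1.31 (SE 0.19, adjusted p = 1.96e-06). Scd was higher by 2.34 (SE 0.92, adjusted p = 0.0256), a call lost without control replicate 2 or 4 or 7D 0 mg/kg replicate 2 (1.99, 2.00 and 2.05). Me1, malic enzyme, was lower (log2 fold change -2.49, SE 0.32, adjusted p = 2.01e-07).

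Markers of some other cell types also differed between control and repaired tendons, and their part in the result was not tested. Markers of skeletal muscle were lower in 25 of 25 genes at 7D 0 mg/kg and in 19 at 21D 0 mg/kg, with Acta1 the most abundant. Their summed level was 244500 to 467600 CPM in control tendons, 1772 to 12185 CPM at 7D 0 mg/kg, 144 to 222 CPM in the 7D tendons given the compound and 707 to 103120 CPM at 21D. Control replicate 4 had the highest muscle share of the controls and also the highest Fdft1, Fdps, Hmgcs1, Idi1 and Sqle, but the lowest Lss and Dhcr7, and its Insig1 lay between those of the other controls. Of the repaired tendons, the 3 with the highest share (9.80%, 8.03% and 7.68%) had 38.3, 37.2 and 37.5 CPM of Fdft1, the highest of the 27. The 7D 2 mg/kg tendons, with shares of 0.0154% to 0.0178%, had 27.5 to 30.6 CPM. With the muscle genes left out of the counts and of the scaling, each count of calls on the 8 genes was the same. Reads of the 8 genes that came from muscle stay in such a fit, so it does not test the part of muscle.

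**Figure D4:**
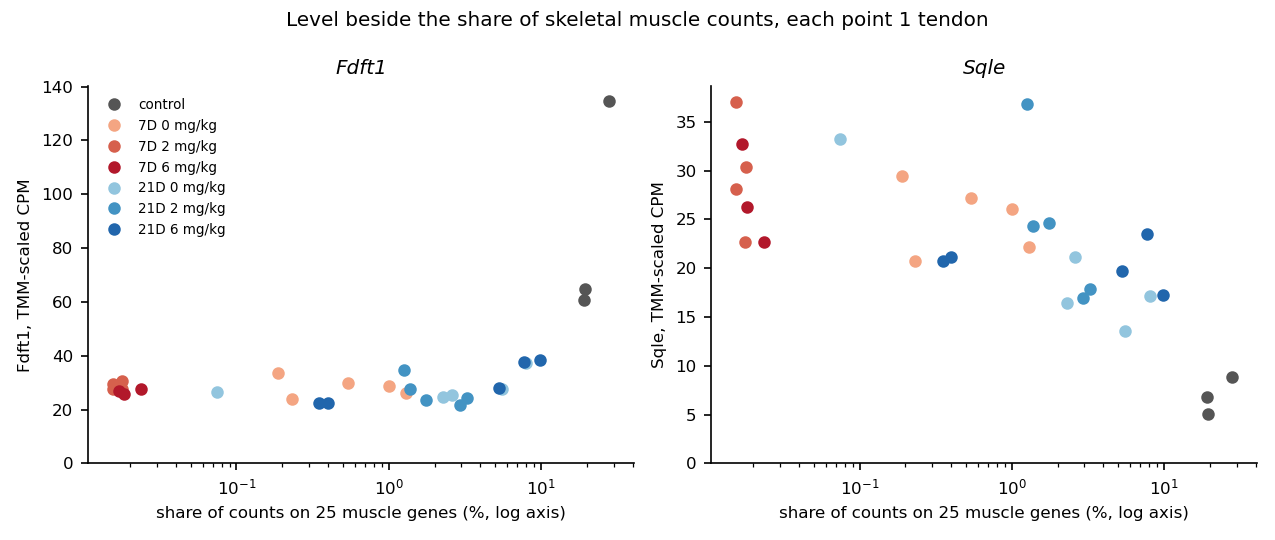
Fdft1 (left) and Sqle (right) in TMM-scaled CPM (vertical axes, from 0) against the share of counts on 25 genes of skeletal muscle (percent, log axis), with a point for each tendon, coloured by group. The controls lie at 19.3% to 28.0% and the repaired tendons at 0.0154% to 9.80%, with all repaired tendons below all controls for Fdft1 and above them for Sqle.

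Markers of dividing cells were higher in 12 of 12 genes at 7D 0 mg/kg (most abundant Pcna), with a summed level of 109.8 to 115 CPM in control tendons, 299.9 to 374 CPM at 7D 0 mg/kg and 189 to 333 CPM at 21D 0 mg/kg. Macrophage markers were higher in 9 of 12 (most abundant Lyz2), at 493 to 2154 CPM in control tendons and 3446 to 8018 CPM at 7D 0 mg/kg. Fibroblast markers were higher in 7 of 8 (most abundant Col3a1), at 6001 to 18411 and 55868 to 69783 CPM. Adipocyte markers were higher in 5 of 9 (most abundant Lpl), at 506 to 1228 and 1123 to 2645 CPM. Of 9 tendon markers (most abundant Col1a1), 1 was higher and 4 lower, with Mkx (-4.10) and Kera (-3.09) lower and Col1a1 higher (1.14). Of 7 Schwann cell genes (most abundant Pmp22), 0 were higher and 0 lower by edgeR, and 0 had an unadjusted p under 0.05 at 7D 0 mg/kg. At 7D 2 mg/kg Mbp (1.96), Pmp22 (0.69) and S100b (1.27), all genes of myelin or Schwann cells, were higher than control and 0 lower, and at 7D 6 mg/kg 0 passed the test and 1 had an unadjusted p under 0.05. At 21D, Pmp22 was higher at 0, 2 and 6 mg/kg (0.53, 0.79 and 0.74), and Mal, named after its values were seen, was lower at 2 and 6 mg/kg (-1.81 and -1.75). No marker of these lists was at 0 in a control tendon.

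The second question was how the genes changed from 7D to 21D. Few of the differences passed the test. The log2 fold change of 21D against 7D was below 0 for all 8 genes at 0 mg/kg (median -0.35) and at 2 mg/kg (-0.25) and for 7 at 6 mg/kg (-0.31). Over all 12558 genes tested the medians were 0.01, 0.00 and 0.00, and 6473, 6304 and 6288 genes were above 0. By edgeR, 0 of the 8 were higher and 0 lower at 0 mg/kg (all genes 2.88% and 2.47%), 0 and 0 at 2 mg/kg (7.09% and 5.98%), and 0 and 1 at 6 mg/kg (8.54% and 4.55%). At an unadjusted p under 0.05 there were 3, 1 and 2 of the 8, beside 2981, 3554 and 3405 of all genes tested. DESeq2 called Lss lower at 0 mg/kg and Dhcr7 lower at 2 mg/kg, and limma-trend called 0 genes at either dose.

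Dhcr7 passed the test at 6 mg/kg. It had 24.1, 10.3 and 12.2 CPM at 7D 6 mg/kg and 9.98, 6.14, 7.41, 8.37 and 7.32 CPM at 21D 6 mg/kg. The time points did not overlap, and 7D replicate 1 was far above the rest. The log2 fold change was -0.99 (SE 0.24, adjusted p = 0.0068), and -0.52 and not past the test without 7D 6 mg/kg replicate 1. It did not pass in a fit of only the groups compared (-0.99). At 2 mg/kg it was -0.63 (SE 0.22, adjusted p = 0.057), and past the test without 7D 2 mg/kg replicate 2 or 3 (-0.73 and -0.76). At 0 mg/kg it was -0.40 (SE 0.21, adjusted p = 0.251).

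Hmgcs1 and Fdps at 0 mg/kg did not overlap between the time points either, with 58.6 to 80.6 CPM against 42.4 to 57.4 CPM for Hmgcs1 and 73.5 to 93.9 CPM against 65.5 to 70.1 CPM for Fdps. Their log2 fold changes of -0.39 (SE 0.23, adjusted p = 0.331) and -0.28 (SE 0.11, adjusted p = 0.118) did not pass the test. Lss was at -0.53 (SE 0.19, adjusted p = 0.0975) and Idi1 at -0.55 (SE 0.23, adjusted p = 0.145) at 0 mg/kg. Insig1 was at -0.15 (SE 0.21, adjusted p = 0.728), and at -0.50 and past the test without the high 21D 0 mg/kg replicate 2. Without 21D 6 mg/kg replicate 3, Lss at 6 mg/kg moved from -0.53 to -0.69 and passed the test. Without 21D 2 mg/kg replicate 3, Hmgcs1 and Idi1 at 2 mg/kg were at -0.60 and -0.65 and passed the test. Fdft1 was at -0.01 at 0 mg/kg (95% interval -0.39 to 0.38).

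The third question was whether the compound altered these genes. In each of the 9 comparisons of doses, 0 of the 8 genes passed the test by edgeR, DESeq2 or limma-trend. An unadjusted edgeR p under 0.05 was found for 1 gene at 7D, Insig1 in 2 against 0 mg/kg, and for 0 genes elsewhere. Over all tested genes, 2.05% differed across the 3 doses at 7D, 2.36% between 2 and 0 mg/kg, 0.39% between 6 and 0 mg/kg and 0% between 6 and 2 mg/kg. At 21D, 0% differed across doses and 0%, 0% and 0% in the same pairs. Where edgeR called 0 of all genes, DESeq2 called 69 (7D 6 against 2 mg/kg), 138 (across doses at 21D), 19, 1 and 254 (2 against 0, 6 against 0 and 6 against 2 mg/kg at 21D), limma-trend called 0, and 997, 1366, 1078, 810 and 1751 had an unadjusted edgeR p under 0.05. The effect of dose differed between the time points for 0.39% of all genes and for 0 of the 8.

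Insig1 had 64.7, 59.3, 73.1 and 63.9 CPM at 7D 2 mg/kg and 59.8, 42.8 and 54.5 CPM at 7D 6 mg/kg, beside 38.1 to 55.5 CPM at 7D 0 mg/kg. The 2 and 0 mg/kg tendons did not overlap, and the 6 mg/kg tendons overlapped both. The log2 fold change of 2 against 0 mg/kg was 0.49 (SE 0.23, 95% interval 0.03 to 0.95, adjusted p = 0.288 by edgeR). Lss had 17.6, 17.1, 20.8 and 19.6 CPM at 7D 2 mg/kg and 29.4, 21.6 and 23.9 CPM at 7D 6 mg/kg, without overlap, and its log2 fold change of 6 against 2 mg/kg was 0.41 (SE 0.23, adjusted p = 0.727). The 95% interval of 6 against 0 mg/kg was -0.39 to 0.63 at 7D and -0.43 to 0.45 at 21D for Sqle, and -0.53 to 0.36 and -0.31 to 0.46 for Fdft1.

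The variation of the genes among tendons of the same group was compared in pairs. Each tendon's log2 CPM was set against the mean of its group (n = 30 tendons), and all 28 pairs of the 8 genes were compared, with 100000 permutations of the tendons within groups (two-sided). By Pearson's r, 10 of the 28 pairs had an adjusted p under 0.05. The share of pairs of other genes that would reach such values was not computed, so nothing particular to these 8 genes is read from that count. Hmgcs1 and Idi1 were the closest pair, with r = 0.81 (permutation p = 0.00035, adjusted p = 0.00327) and rho = 0.73 (permutation p = 0.00019, adjusted p = 0.00205). That r was 0.61 without the 2 tendons farthest from the median of Hmgcs1, 21D 2 mg/kg replicate 3 and 21D 6 mg/kg replicate 1. Sqle and Idi1 had r = 0.69 (permutation p = 2e-05, adjusted p = 0.00056) and rho = 0.72 (permutation p = 3e-05, adjusted p = 0.00084), with r = 0.63 without the 2 farthest.

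Fdft1, which moved opposite to Sqle and Idi1 between control and repaired tendons, went with Idi1 and Hmgcs1 within groups. It had r = 0.58 (permutation p = 0.00194, adjusted p = 0.00776) and rho = 0.59 (permutation p = 0.00203, adjusted p = 0.00812) with Idi1. With Hmgcs1 it had r = 0.66 (permutation p = 0.00328, adjusted p = 0.0102) and rho = 0.57 (permutation p = 0.00542, adjusted p = 0.0169). Without the 2 farthest tendons these r were 0.47 and 0.59. With Sqle it had r = 0.35 (permutation p = 0.103, adjusted p = 0.253) and rho = 0.34 (permutation p = 0.0995, adjusted p = 0.232), which did not pass. Fdps and Fdft1 had r = 0.71 (permutation p = 0.00246, adjusted p = 0.00861) and rho = 0.53 (permutation p = 0.0189, adjusted p = 0.0531), so that rho did not pass, with r = 0.52 without control replicate 4 and 21D 2 mg/kg replicate 3. Insig1 passed with Sqle alone, with r = 0.67 (permutation p = 0.00375, adjusted p = 0.0105) and rho = 0.56 (permutation p = 0.0048, adjusted p = 0.0168) and r = 0.53 without the 2 farthest. Lss and Dhcr7 passed in none of their pairs, with r from -0.38 to 0.30. All values of a tendon share its library and scaling.

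**Figure D5:**
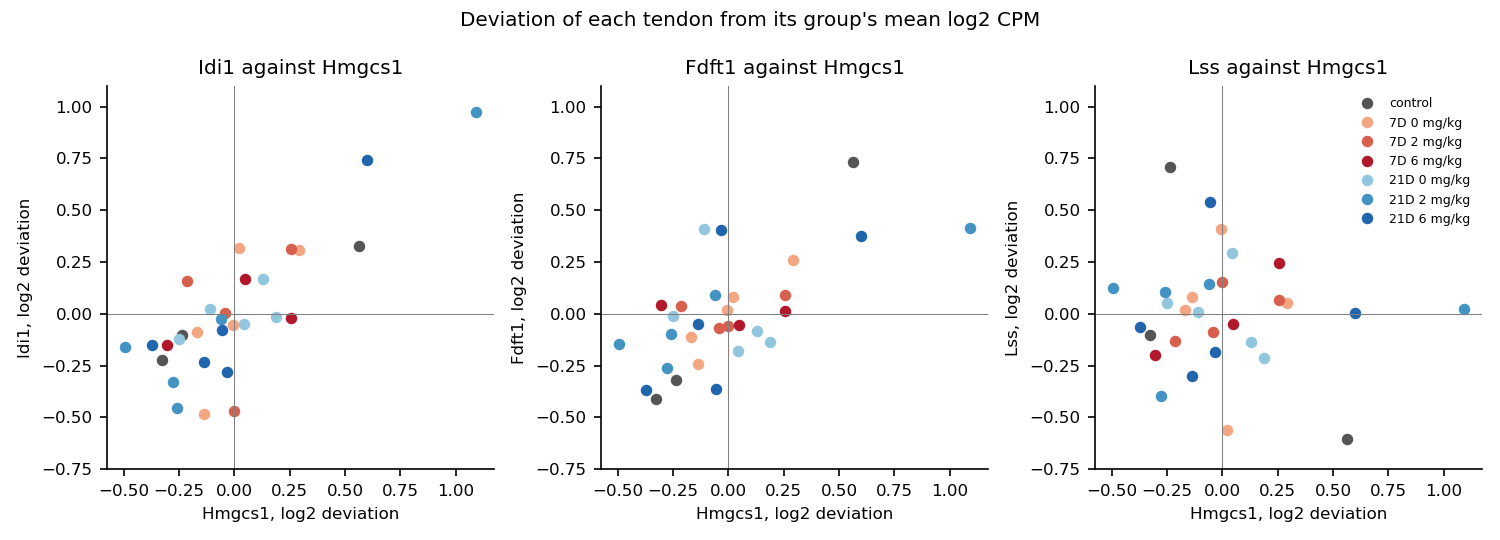
Deviation of each tendon from its group's mean log2 CPM, for Idi1, Fdft1 and Lss (vertical axes) against Hmgcs1 (horizontal axes), with a point for each tendon, coloured by group. Idi1 (r = 0.81) and Fdft1 (r = 0.66) rise with Hmgcs1, while Lss has r = -0.11.

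All 8 genes were above their group's mean in 21D 2 mg/kg replicate 3 (mean deviation 0.49 on the log2 scale), 21D 6 mg/kg replicate 1 (0.31) and 7D 0 mg/kg replicate 3 (0.21). Of the 11 other enzymes, those whose deviations were most like the mean z-score of the 8 genes over 30 tendons were Cyp51 (Pearson's r 0.80), Msmo1 (0.68) and Sc5d (0.65). Ebp (-0.06) and Tm7sf2 (0.02) were least like it. Outside the pathway lists, the most alike by deviations were Nucks1 (0.67), Rabl3 (0.67), Zfp54 (0.66), Zfand1 (0.65) and Osgin2 (0.64). By level over all tendons, where the difference between control and repaired tendons enters, the most alike included Hnrnpl (0.79), Rfc3 (0.78), Gmnn (0.78) and Ost4 (0.77). These are descriptions, taken as the highest of all tested genes.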

How the data were processed

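RNA was measured in plantaris tendons of 30 rats, grouped by the day and dose in their labels. The authors trimmed 50-base single-end reads (fastp), aligned them to rn6 (STAR) and deposited raw counts per gene of Ensembl annotation, without normalization. They removed tendons of low read quality before deposit. Their methods leave 4 tendons at 7D 6 mg/kg, but 3 are labelled so, which was kept. The authors also deposited a table of their own edgeR comparisons with log2 fold changes, p-values, an average log2 CPM and gene widths, of which only chromosome names were used. The strand setting of the counting is not given in the sources used here.

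The tests were run with edgeR 4.0.16 (R 4.3.3) on the 12558 of 13124 genes whose mean reached 3 CPM in any of the 7 groups. Counts were scaled by TMM, with factors of 0.599 to 0.789 in control and 0.95 to 1.09 in repaired tendons. A quasi-likelihood model with a mean per group was fitted to all 30 tendons, and p-values were adjusted by Benjamini-Hochberg over all genes kept, with calls at an adjusted p under 0.05. Levels are CPM after TMM scaling. For log2 CPM the prior count was 2. The alternatives were RLE scaling, library size alone, muscle genes left out, no filter, the compared groups alone, a replicate block, DESeq2 1.42.0, limma-trend (limma 3.58.1), a 1.5-fold minimum and leaving out each tendon. The steps were tested on simulated data.

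Depth is known for the listed genes alone. A floor of 3 counts was 0.0601 to 0.242 CPM, a limit for counting error only, since PCR copies of a molecule were not told apart. Each tendon was labelled as a separate sample, and no pair in a group agreed within sampling noise. Exon lengths were not used, so levels are compared between groups and not between genes. Promoters are RefSeq sequences of GRCr8, another build than rn6. The members and lists were chosen with earlier results of these data known. Named genes were the 8, the other enzymes of synthesis, for each other list the 2 most abundant and the 2 with the smallest adjusted p at 7D 0 mg/kg, and the 5 genes most like the 8 by each measure. Srebf1, Srebf2 and Mal were added after their values were seen. A few genes that these rules name are not reported here and were left out of the lists and their counts, though not of the fits.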

Additional observations from a re-analysis of the deposited data

Results flagged for a closer look

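In groups of 4 or 5 tendons, a tendon was picked out where its gap to the nearest other tendon took up more of the group's range than Dixon's 95% critical value for a group of that size. Of 40 gene and group values checked, 7 were picked out, where chance gives about 1 in 20, and the genes are not independent. Hmgcs1 was 114 CPM in 21D 2 mg/kg replicate 3, where the others had 37.8 to 51.1 CPM, and 85.2 CPM in 21D 6 mg/kg replicate 1, where the others had 43.4 to 54.9 CPM. Idi1 stood apart in the same 2 tendons, with 43.3 CPM (others 16.0 to 21.6 CPM) and 39.3 CPM (others 19.3 to 22.2 CPM). The muscle share was 1.26% in 21D 2 mg/kg replicate 3, the lowest of its group. In 21D 6 mg/kg replicate 1 it was 7.68%, in a group of 0.351% to 9.80%. Insig1 was 78.1 CPM in 21D 0 mg/kg replicate 2, above 25.8 to 37.3 CPM, and this tendon also had the lowest muscle share of its group (0.0746%). Fdft1 was 37.2 CPM in 21D 0 mg/kg replicate 5, above 24.6 to 27.7 CPM, and this tendon had the highest muscle share of its group (8.03%). Lss was 14.0 CPM in 21D 2 mg/kg replicate 5, below 18.7 to 20.4 CPM, and this tendon had a muscle share of 2.92% (group 1.26% to 3.27%). Why these tendons stood apart was not tested.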

How the results depend on the processing

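Scaling moved the most. A count is said to move where it changed by more than 1.5 times or to or from 0. With library size alone, 1 of the 8 genes was lower than control in each of the 6 comparisons in place of 2, because Fdps was no longer lower: 0.32, 0.20 and 0.24 at 7D 0, 2 and 6 mg/kg and 0.0073, 0.10 and 0.044 at 21D. Hmgcs1 was then at 0.39, 0.56 and 0.51 at 21D 0, 2 and 6 mg/kg. Of the 11 other enzymes, 10, 10 and 8 were then higher at 7D 0, 2 and 6 mg/kg and 9, 8 and 8 at 21D, and 0 were lower at 7D 0 mg/kg and at 21D 0, 2 and 6 mg/kg. That scaling also raised the median of all genes at 0 mg/kg. The share of all genes called under it is not given here, so nothing particular to these enzymes is read from these counts. At 7D 0 mg/kg the sign turned for Pmvk (0.51), Nsdhl (0.53), Sc5d (0.23), Mbtps1 (0.51) and Fnta (0.44), and at 21D 0 mg/kg for Pmvk (0.43), Mvd (0.12), Tm7sf2 (0.46), Nsdhl (0.41), Fnta (0.37) and Srebf2 (0.52). With a 1.5-fold minimum, 1 of the 8 was lower in each of the 6 comparisons with control and of the other enzymes 0 were lower at 7D 0 mg/kg and 1 at 21D 0 and 6 mg/kg. With only the groups compared, 1 was lower at 7D 0, 2 and 6 mg/kg and 21D 2 mg/kg, 3 were higher at 21D 6 mg/kg, 1 of the other enzymes was lower at 21D 0 mg/kg, and 0 of the 8 were lower at 21D against 7D at 6 mg/kg. DESeq2 called 1 lower at 21D against 7D at 0 and at 2 mg/kg. Small values turned in sign: Fdft1 at 21D against 7D at 0 mg/kg was 0.00059 with RLE, 0.00051 with DESeq2, 0.0045 without muscle genes and 0.0041 with only the groups compared. Without a filter on low counts, Hmgcs1 at 21D 2 mg/kg was 0.017 and Lss at 21D against 7D at 2 mg/kg 0.013. At 21D 2 mg/kg, 2 of the other enzymes in place of 1 were lower with RLE, with DESeq2 and without muscle genes, and no other count moved so far with RLE or without muscle genes, and none with limma-trend or without a filter. Smaller changes were that 4 in place of 5 of the 8 were higher at 21D 6 mg/kg with RLE, where Dhcr7 was lost, and that 3 in place of 4 other enzymes were higher at 21D 0 mg/kg with RLE and without muscle genes, where Mvk was lost. With only the groups compared, Idi1 was gained and Insig1 lost at 21D 0 mg/kg, so that the count stayed at 4.

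Leaving out 1 tendon at a time, the genes lower than control numbered 1 to 2 at 7D 0, 2 and 6 mg/kg, and those higher 2 to 4 at 21D 0 mg/kg and 2 to 5 at 21D 6 mg/kg. The other enzymes lower numbered 0 to 1 at 7D 6 mg/kg, 1 to 4 at 21D 0 mg/kg and 1 to 3 at 21D 2 mg/kg. At 21D against 7D, 0 to 1 of the 8 were lower at 0 mg/kg and 0 to 2 at 2 and at 6 mg/kg. Signs also turned among small values, with ranges over the tendons left out. Hmgcs1 ranged from -0.028 to 0.45 at 7D 0 mg/kg, -0.0070 to 0.47 at 7D 2 mg/kg, -0.41 to 0.068 at 21D 0 mg/kg, -0.41 to 0.26 at 21D 2 mg/kg and -0.23 to 0.26 at 21D 6 mg/kg. At 7D 0 mg/kg, Pmvk ranged from -0.34 to 0.094, Hsd17b7 from -0.038 to 0.31, and Mbtps1 from -0.27 to 0.020, and at 21D 0 mg/kg Pmvk from -0.37 to 0.063, Tm7sf2 from -0.33 to 0.14, Mbtps1 from -0.023 to 0.26 and Srebf2 from -0.19 to 0.023. At 21D against 7D, Fdft1 ranged from -0.12 to 0.063 at 0 mg/kg and Lss from -0.055 to 0.075 at 2 mg/kg.

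Replicate numbers did not pair the tendons: the deviations of same-numbered tendons correlated from -0.701 to 0.681, and 13 of 52 matched their own number best. With a replicate block, 1 of the 8 was lower at 7D 0 mg/kg in place of 2, where Fdps was lost (-0.28), and 1 was lower at 21D against 7D at 2 mg/kg in place of 0, 1 of the other enzymes was lower at 21D 0 mg/kg in place of 2, 4 in place of 5 of the 8 were higher at 21D 6 mg/kg, where Dhcr7 was lost (0.56), and Srebf2 at 21D 0 mg/kg was 0.028. Mvd (-0.32) and Scd (1.98) at 21D 0 mg/kg also lost their calls under the block, and Scap (0.23) and Fnta (-0.22) gained them. Scap gained its call also without a filter (0.22) and with library size alone (0.75), and Fnta also with RLE (-0.25) and DESeq2 (-0.24). Of single tendons left out at 21D 0 mg/kg, Scd lost its call without control replicate 2 or 4 or 21D 0 mg/kg replicate 1 or 3 (1.86, 1.88, 2.03 and 2.04), Fnta gained one without control replicate 2 (-0.39) and Scap without 21D 0 mg/kg replicate 5 (0.23). The cause of these moves was not tested. The 8 genes had at least 44 counts in every tendon, and the part of depth in the width of the intervals was not tested.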
